A study of Homo sapiens with 9 samples.

Results

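Transcripts of 10 receptors through which myeloid cells receive growth factors and cytokines were followed over 48 h of fusion protein induction in U937 cells. The receptors were CSF1R, CSF2RA, CSF2RB, CSF3R, IL3RA, FLT3, IL6R, IFNGR1, IL10RA and TNFRSF1B, each found by its gene name in all 9 deposited libraries, and each name occurred once among the 59410 gene names (60623 identifiers) measured. U937 is an established human monocytic cell line. The libraries came from 3 stable lines, all made by retroviral transduction with a doxycycline-responsive, puromycin-selected vector, which held AML1-ETO, ETO2-GLIS2 or no insert. AML1-ETO joins the DNA-binding Runt domain of AML1 (RUNX1) to the corepressor ETO (RUNX1T1), and ETO2-GLIS2 joins the corepressor ETO2 (CBFA2T3) to the zinc fingers of GLIS2, both with an N-terminal HA tag. Each line was sampled after 0, 12 and 48 h of 5 μg/ml doxycycline, so the 0 h libraries of all lines were uninduced and the empty vector line received the drug without a fusion protein. The fusion lines came from single clones, and the empty vector libraries are labelled WT. Each of the 9 conditions had 1 library. Differences between conditions therefore have no replicate check and no test, clone and fusion protein cannot be told apart, and the intervals given are 95% intervals for counting error alone.

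Myeloid cytokine receptors couple a ligand at the cell surface to kinases and other signalling proteins inside the cell. CSF1R and FLT3 are receptor tyrosine kinases that bind M-CSF and FLT3 ligand and support macrophages and early progenitors. CSF2RA and IL3RA bind GM-CSF and IL-3 and share the signalling chain CSF2RB, which engages JAK2 and STAT5, while CSF3R, the receptor for G-CSF, signals as a homodimer. IL6R binds IL-6 and signals through the separate chain gp130 (IL6ST), IFNGR1 and IL10RA are the ligand-binding chains for interferon-γ and IL-10, and TNFRSF1B is the second TNF receptor, which recruits TRAF2 and has no death domain. Transcription of several of these genes in myeloid cells depends on RUNX1, PU.1 and C/EBP factors.

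Values are FPKM, the reads on a gene scaled to its exon length and to the library's reads on genes, which allows levels of different genes to be compared per length. The 9 libraries held 15136397 to 18443639 reads on genes. Of the genes that the constructs carry, RUNX1T1 had 0.512, 22.2 and 28.7 FPKM at 0, 12 and 48 h in AML1-ETO cells and at most 0.0240 FPKM elsewhere, and GLIS2 went from 2.39 to 8.85 FPKM in ETO2-GLIS2 cells, beside 2.47 to 5.6 FPKM in the other lines. CD4 (173 to 239 FPKM), LYZ and SPI1 were present in all libraries, while CD14 was at most 0.0802 FPKM. CD68 was at most 0.0283 FPKM, and 81.6% of its exon bases also belong to another gene on the same strand. Of the markers of other cells, CD3E, MS4A1, HBB and GP9 were at 0 in every library, ITGA2B was at most 0.107 FPKM and NCAM1 at most 2.09 FPKM. In bulk RNA, fewer cells of a type and less RNA per cell cannot be told apart.

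Before induction, the receptors spanned a wide range of levels. IL6R was the highest, with 73.7 to 81.7 FPKM over the 3 uninduced lines, and CSF1R the lowest, with 0.187 to 0.695 FPKM. TNFRSF1B (33.7 to 38.4 FPKM) and CSF3R (28.6 to 37.7 FPKM) overlapped each other, and both lay above IFNGR1 (13.5 to 25.4 FPKM). FLT3 (7.43 to 9.38 FPKM) overlapped CSF2RB (4.05 to 8.85 FPKM), whose range also included that of IL10RA (4.31 to 4.45 FPKM). CSF2RA followed with 3.50 to 4.24 FPKM, below IL10RA but overlapping CSF2RB. IL3RA, with 1.11 to 1.62 FPKM, lay below CSF2RA without overlap. A gene was called past 2-fold when its FPKM, with a pseudocount of 0.01, differed by more than 2-fold and its mean over both libraries was at least 1 FPKM. In the uninduced AML1-ETO line against the uninduced empty vector line, no receptor was called, where 2.57% of 11273 genes were called higher and 2.10% lower. No receptor was called in the uninduced ETO2-GLIS2 line either, where 3.40% of 11133 genes were called higher and 2.85% lower. The widest difference from the uninduced empty vector line above the FPKM minimum was that of IFNGR1, with 25.4 FPKM in the uninduced ETO2-GLIS2 line and 13.5 FPKM in the uninduced empty vector line (log2 difference 0.91, 0.78 to 1.04). CSF2RB was 0.71 higher on the log2 scale (0.53 to 0.88) in the uninduced AML1-ETO line than in the uninduced empty vector line, and 2.18-fold higher there than in the uninduced ETO2-GLIS2 line. CSF1R was 1.44 lower there on the log2 scale (-2.41 to -0.63), from 16 against 44 reads.

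**Figure D1:**
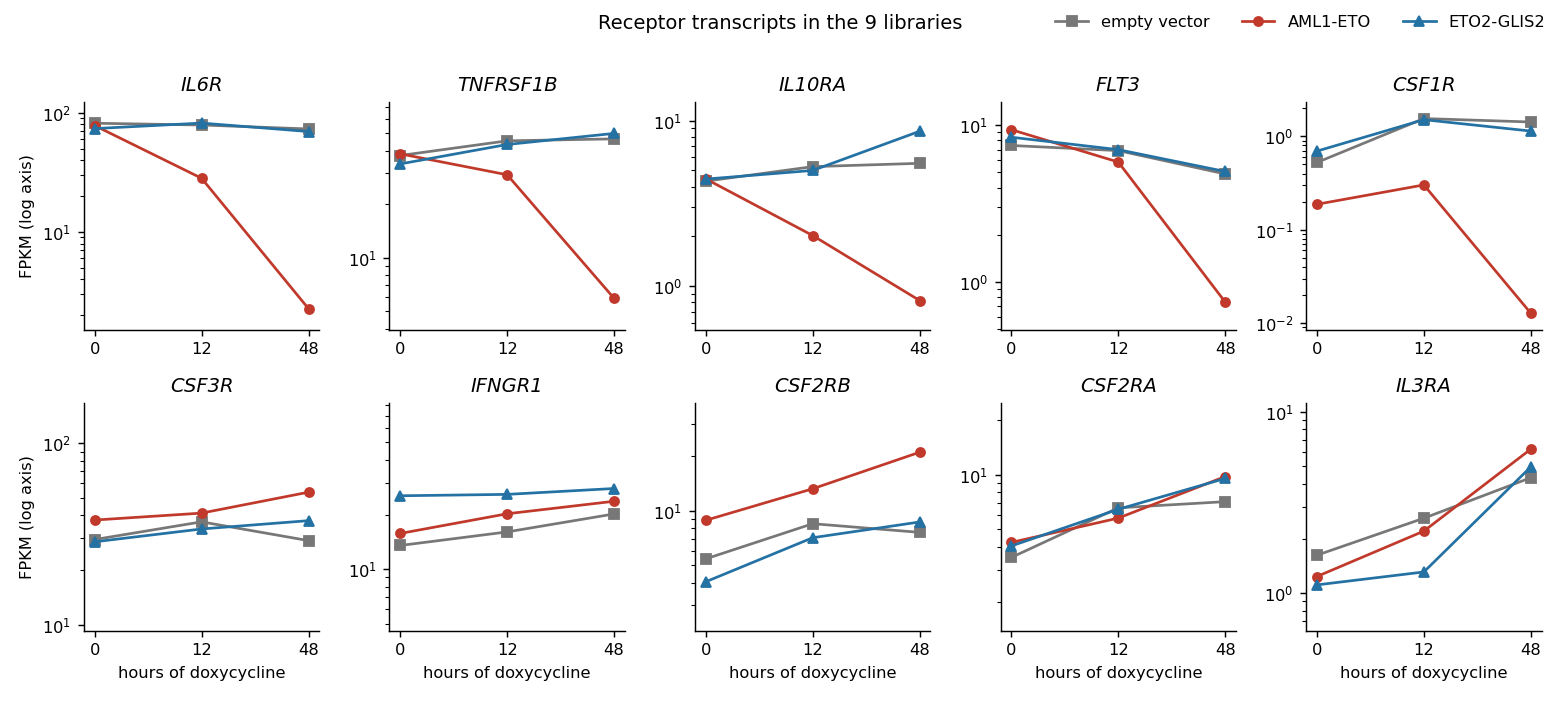
FPKM (log axis, a separate scale for each gene) of the 10 receptors against hours of doxycycline (0, 12 and 48 h, drawn at equal steps) in the empty vector (grey squares), AML1-ETO (red circles) and ETO2-GLIS2 (blue triangles) lines, 1 library per point. In the top row the AML1-ETO line separates from the other lines, IL6R reaching 2.27 FPKM at 48 h against 73.2 FPKM in the empty vector line, and in the bottom row the lines run closer together.

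After 48 h of doxycycline, 4 of the 10 receptors fell past 2-fold in AML1-ETO cells, IL6R, TNFRSF1B, IL10RA and FLT3, and 3 rose, CSF2RB, CSF2RA and IL3RA. Among all 11968 genes with a mean of at least 1 FPKM in this comparison, 11.3% fell and 17.1% rose past 2-fold. In the empty vector line, 2 receptors rose (CSF2RA and IL3RA) and none was called lower, where 7.82% of 11563 genes rose and 2.90% fell. In the ETO2-GLIS2 line the 3 receptors that rose were again CSF2RB, CSF2RA and IL3RA and none was called lower, where 10.6% of 11642 genes rose and 2.51% fell. CSF1R, with a mean under 1 FPKM in each of these comparisons, and the remaining CSF3R and IFNGR1 were not called at 48 h. FLT3 and IL10RA passed the FPKM minimum in AML1-ETO cells through their 0 h library alone. The 12 h and 48 h comparisons of a line use the same 0 h library. Median log2 fold changes over the 9 receptors that passed the minimum were 0.51 with AML1-ETO, 0.57 with ETO2-GLIS2 and 0.36 with the empty vector, beside 0.22, 0.16 and 0.16 over all genes tested. Rescaling each library by its median ratio corresponds to a shift of 48 h log2 fold changes by 0.13 in the empty vector and ETO2-GLIS2 lines and by 0.15 in AML1-ETO cells, towards lower values, and by less where the pseudocount weighs in, as for CSF1R.

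IL6R (ENSG00000160712; GRCh38 chromosome 1, 154405343 to 154469450), the IL-6-binding chain, had the deepest fall. It had 81.7, 78.9 and 73.2 FPKM at 0, 12 and 48 h in the empty vector line, 73.7, 81.9 and 69.6 FPKM in ETO2-GLIS2 cells, and 78.2, 28.2 and 2.27 FPKM in AML1-ETO cells. The 6 libraries of the other lines and the uninduced AML1-ETO library thus lay together, with both induced AML1-ETO libraries below them. The fall at 48 h was 34.3-fold, a log2 fold change of -5.10 (-5.30 to -4.91) from 8362 to 223 reads, and 0.577% of the genes tested fell further. At 12 h the log2 fold change was already -1.47 (-1.53 to -1.41), which is 28.8% of the 48 h value on the log2 scale. Relative to the empty vector line, which moved by -0.16, the 48 h log2 fold change was -4.94.

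TNFRSF1B (ENSG00000028137; chromosome 1, 12166991 to 12209220), the TNF receptor without a death domain, fell later. Its levels were 38.4, 29.3 and 5.91 FPKM at 0, 12 and 48 h in AML1-ETO cells, 37.6, 45.4 and 46.6 FPKM in the empty vector line, and 33.7, 43.3 and 50.03 FPKM in ETO2-GLIS2 cells. The 2 induced libraries of AML1-ETO were the lowest of the 9, while in the other lines both induced libraries lay above their own 0 h library. The log2 fold change in AML1-ETO cells was -0.39 (-0.48 to -0.30) at 12 h and -2.70 (-2.87 to -2.53) at 48 h, so that 14.5% of the 48 h change on the log2 scale was present at 12 h.

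IL10RA (ENSG00000110324; chromosome 11, 117986394 to 118003037), the ligand-binding chain for IL-10, had closely similar uninduced levels in the 3 lines and then diverged. It had 4.45, 2.02 and 0.819 FPKM in AML1-ETO cells, 4.31, 5.28 and 5.53 FPKM in the empty vector line, and 4.44, 5.00 and 8.63 FPKM in ETO2-GLIS2 cells. The induced AML1-ETO libraries were the lowest of the 9 and the ETO2-GLIS2 library of 48 h the highest. The AML1-ETO line was past 2-fold at both times, with log2 fold changes of -1.13 (-1.36 to -0.92) at 12 h and -2.43 (-2.76 to -2.14) at 48 h. In the ETO2-GLIS2 line the 48 h log2 fold change of 0.96 (0.82 to 1.10) was just under the 2-fold line, and 0.60 of it was left after that of the empty vector line was subtracted.

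FLT3 (ENSG00000122025; chromosome 13, 28003274 to 28100576), the progenitor tyrosine kinase receptor, was lower at 48 h than at 0 h in all 3 lines. It had 7.43, 6.89 and 4.89 FPKM in the empty vector line, 8.396, 6.99 and 5.07 FPKM in ETO2-GLIS2 cells, and 9.38, 5.83 and 0.743 FPKM in AML1-ETO cells. The last value, from 47 reads, was the only one under 4.89 FPKM. Log2 fold changes at 48 h were -0.60 (-0.81 to -0.40), -0.73 (-0.92 to -0.54) and -3.64 (-4.12 to -3.23), of which only the last was called. With the change of empty vector cells subtracted, FLT3 was at -3.04 with AML1-ETO and at -0.12 with ETO2-GLIS2.

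CSF1R (ENSG00000182578; chromosome 5, 150053295 to 150113365), the M-CSF receptor, was measured from few reads. The empty vector line had 0.525, 1.55 and 1.43 FPKM (44, 121 and 113 reads), the ETO2-GLIS2 line 0.695, 1.51 and 1.14 FPKM (66, 139 and 96 reads), and the AML1-ETO line 0.187, 0.302 and 0.0128 FPKM (16, 24 and 1 reads). All 3 AML1-ETO libraries, the uninduced one included, were below the other 6. The 48 h log2 fold change in AML1-ETO cells, which includes the pseudocount, was -3.12. The interval of the read ratio, which has no pseudocount, was -9.27 to -1.19. At 12 h CSF1R was called higher in the empty vector line, with a log2 fold change of 1.55 (1.05 to 2.10), and in ETO2-GLIS2 cells, with 1.11 (0.69 to 1.56).

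Promoters of these genes are printed here because 4 of the genes fell together, with the CSF1R promoter beside them and those of CSF2RA and IL3RA, which rose in every line, for contrast. Each line gives the 150 bases before a RefSeq transcription start (GRCh38.p14), 5′ to 3′ on the gene's strand, with capitals for matches to TGTGGT or TGCGGT (RUNX), GAGGAA (ETS factors of the PU.1 type), TTGCNNAA (C/EBP) or TGGGGGGT (GLIS) on either strand.
IL6R, chr1:154405193-154405342, strand +: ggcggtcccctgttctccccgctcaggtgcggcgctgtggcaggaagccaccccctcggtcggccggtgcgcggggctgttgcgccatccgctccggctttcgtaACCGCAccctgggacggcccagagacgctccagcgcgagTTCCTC
FLT3, chr13:28100577-28100726, strand -: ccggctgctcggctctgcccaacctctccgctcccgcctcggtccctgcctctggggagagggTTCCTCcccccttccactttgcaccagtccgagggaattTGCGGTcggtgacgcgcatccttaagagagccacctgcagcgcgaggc
IL10RA, chr11:117989795-117989944, strand +: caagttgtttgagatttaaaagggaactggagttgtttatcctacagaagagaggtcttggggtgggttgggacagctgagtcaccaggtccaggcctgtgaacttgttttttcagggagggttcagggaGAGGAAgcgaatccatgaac
TNFRSF1B, chr1:12166841-12166990, strand +: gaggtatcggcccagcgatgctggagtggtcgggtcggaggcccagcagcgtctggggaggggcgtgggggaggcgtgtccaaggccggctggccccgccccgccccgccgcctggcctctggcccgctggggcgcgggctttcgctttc
CSF1R, chr5:150086555-150086704, strand -: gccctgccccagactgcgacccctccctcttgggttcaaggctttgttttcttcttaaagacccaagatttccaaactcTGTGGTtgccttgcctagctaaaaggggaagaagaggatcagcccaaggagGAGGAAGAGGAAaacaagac
CSF2RA, chrX:1268664-1268813, strand +: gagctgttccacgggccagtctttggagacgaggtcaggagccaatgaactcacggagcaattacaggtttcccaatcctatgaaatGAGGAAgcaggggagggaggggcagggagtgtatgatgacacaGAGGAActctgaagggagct
IL3RA, chrX:1336635-1336784, strand +: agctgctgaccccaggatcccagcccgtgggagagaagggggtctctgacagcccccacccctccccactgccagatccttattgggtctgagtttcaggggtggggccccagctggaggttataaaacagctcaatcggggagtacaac

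The RefSeq table held 12 starts for 9 of the 10 receptors, and the search covered 250 bases before to 50 bases after each start, with positions counted from the start base as 0. In the IL6R promoter, TGCGGT began at -45 and GAGGAA at -6, both on the opposite strand, with another GAGGAA at -172. FLT3 had TGCGGT at -48 and GAGGAA on the opposite strand at -87. IL10RA had GAGGAA at -20 and TTGCNNAA at -197, and TNFRSF1B had none of the motifs. The start searched for IL10RA follows base 117989944 and lies inside the gene's interval of 117986394 to 118003037. The bases before 117986394 were not searched. The downstream of 2 CSF1R starts, shown above, had TGTGGT at -71 and GAGGAA at -20, -14 and 19, the first pair adjacent without overlap, whereas the upstream start had no match. CSF2RA had GAGGAA at -63 and -20, and IL3RA had only TTGCNNAA at -240, before the printed stretch. CSF3R and IFNGR1, which were not called and are not printed, also had matches. The upstream CSF3R start had TGTGGT at 14 and TTGCNNAA at -206, and the downstream start GAGGAA at -111. The upstream IFNGR1 start had TTGCNNAA at -232 and, on the opposite strand, TGCGGT at -154 and GAGGAA at -184. Of all 34789 promoters in the table, 13.08% held TGTGGT, 7.281% TGCGGT, 27.91% GAGGAA, 10.45% TTGCNNAA and 1.475% TGGGGGGT. GAGGAA was thus the most common of these motifs and TGGGGGGT the rarest. In AML1-ETO cells receptors with and without matches fell, and CSF3R, IFNGR1, CSF2RA and IL3RA, which did not fall, also held matches. A match describes the sequence without showing that a factor bound there.

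**Figure D2:**
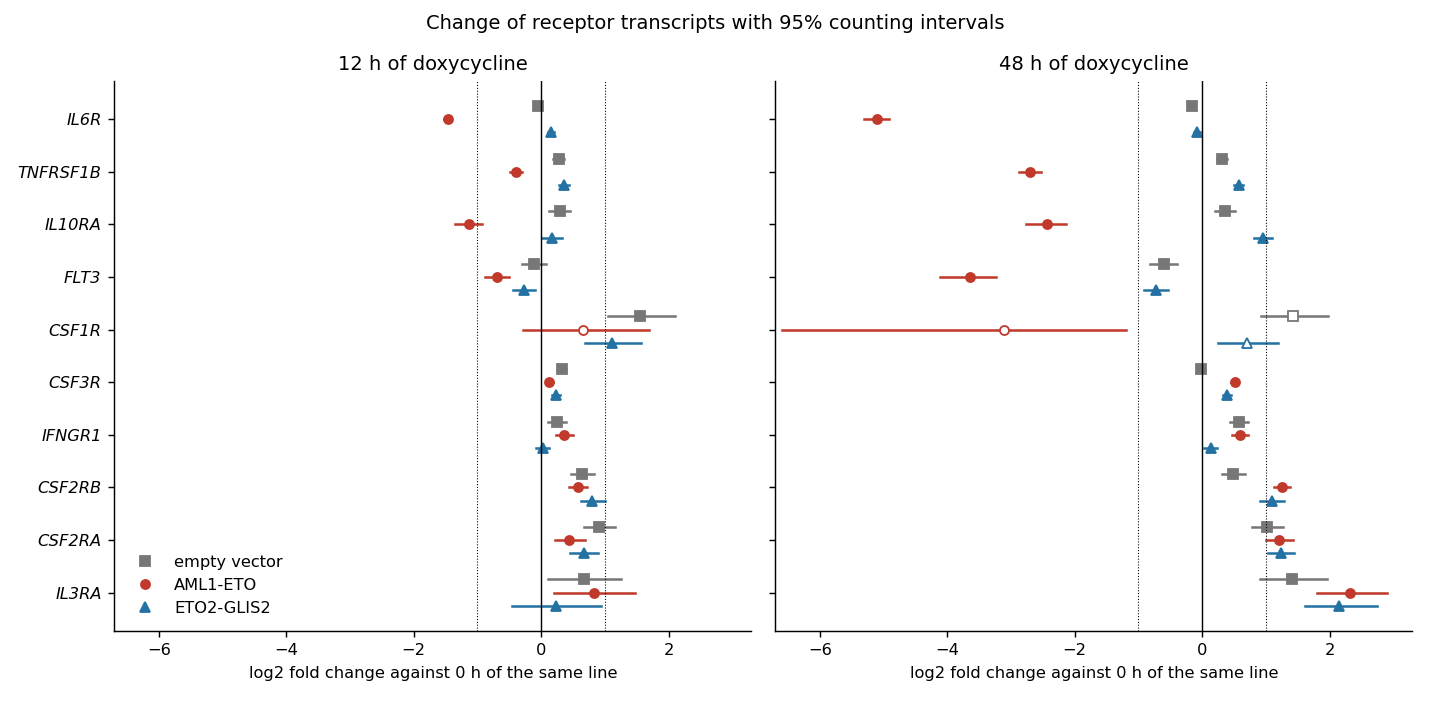
Log2 fold change against 0 h of the same line at 12 h (left) and 48 h (right), with 95% counting intervals, for the empty vector (grey), AML1-ETO (red) and ETO2-GLIS2 (blue) lines. Open symbols mark a mean under 1 FPKM, dotted lines mark 2-fold, and the interval of CSF1R in AML1-ETO cells at 48 h, which extends to -9.27, is cut at the edge. The 4 red symbols of IL6R, TNFRSF1B, IL10RA and FLT3 at 48 h lie at -2.43 or below.

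The 3 chains of the GM-CSF and IL-3 receptors went the other way. IL3RA (ENSG00000185291; chromosome X, 1336785 to 1382689), the IL-3-binding chain, had the largest rise of the receptors called at 48 h in each line. It had 1.62, 2.59 and 4.33 FPKM in the empty vector line (45, 67 and 114 reads), 1.23, 2.20 and 6.23 FPKM in AML1-ETO cells (35, 58 and 162 reads), and 1.11, 1.31 and 4.97 FPKM in ETO2-GLIS2 cells (35, 40 and 139 reads). In every line its 48 h library was the highest. The log2 fold changes at 48 h were 1.42 (0.91 to 1.95), 2.33 (1.80 to 2.91) and 2.15 (1.62 to 2.74), and those of the fusion lines exceeded that of the empty vector line by 0.91 and 0.74.

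CSF2RA (ENSG00000198223; chromosome X, 1268814 to 1325218), the GM-CSF-binding chain, had 3.50, 6.57 and 7.11 FPKM in the empty vector line, 4.24, 5.77 and 9.78 FPKM in AML1-ETO cells, and 4.05, 6.45 and 9.54 FPKM in ETO2-GLIS2 cells. Every induced library lay above all uninduced ones. Its 48 h log2 fold changes of 1.02 (0.78 to 1.27), 1.21 (0.996 to 1.42) and 1.24 (1.03 to 1.45) differed between the fusion lines and the empty vector line by 0.18 and 0.21. The first of them was 0.89, under 2-fold, after median-ratio rescaling. CSF2RA and IL3RA lie in the pseudoautosomal region, whose chromosome Y copy has the same sequence, and the handling of reads that fit both copies was not stated.

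CSF2RB (ENSG00000100368; chromosome 22, 36913628 to 36940439), the chain shared by both receptors, had 8.85, 13.2 and 21.0 FPKM in AML1-ETO cells, 5.42, 8.47 and 7.59 FPKM in the empty vector line, and 4.05, 7.09 and 8.66 FPKM in ETO2-GLIS2 cells. AML1-ETO cells had the highest level at each time, before induction as well. The 48 h log2 fold changes were 1.25 (1.12 to 1.38) in AML1-ETO cells, 1.09 (0.91 to 1.28) in ETO2-GLIS2 cells and 0.49 (0.30 to 0.67) in the empty vector line, of which the last was not called. In ETO2-GLIS2 cells it was 0.94 with a pseudocount of 1 FPKM and 0.96 after median-ratio rescaling, both under 2-fold. Beyond the change of the empty vector line, 0.76 and 0.61 were left in the AML1-ETO and ETO2-GLIS2 lines, and none of the 3 rises was past 2-fold beyond it in either line. Compared directly at 48 h, CSF2RB was 2.77-fold higher in AML1-ETO than in empty vector cells (log2 difference 1.47, 1.33 to 1.61), part of which was present at 0 h.

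CSF3R (ENSG00000119535; chromosome 1, 36466043 to 36483314), the G-CSF receptor, stayed within 28.6 to 53.7 FPKM over the 9 libraries. It had 37.7, 41.2 and 53.7 FPKM in AML1-ETO cells, 29.4, 36.9 and 29.0 FPKM in the empty vector line, and 28.6, 33.7 and 37.4 FPKM in ETO2-GLIS2 cells. The AML1-ETO libraries were the 3 highest, and the 48 h log2 fold changes of 0.51 (0.46 to 0.56), -0.02 (-0.08 to 0.04) and 0.39 (0.33 to 0.45) were all short of 2-fold. IFNGR1 (ENSG00000027697; chromosome 6, 137197484 to 137219385), the interferon-γ-binding chain, had 13.5, 16.0 and 20.2 FPKM in the empty vector line, 15.7, 20.2 and 23.7 FPKM in AML1-ETO cells, and 25.4, 25.8 and 27.9 FPKM in ETO2-GLIS2 cells. Its log2 fold change at 48 h was 0.59 (0.46 to 0.72) in AML1-ETO cells and 0.58 (0.44 to 0.72) in empty vector cells, a difference of 0.01, and 0.13 (0.03 to 0.24) in ETO2-GLIS2 cells, whose uninduced level was already higher.

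At 12 h fewer receptors were called. In the AML1-ETO line, IL6R and IL10RA fell past 2-fold and none was called higher, where 2.34% of 11724 genes fell and 6.40% rose. In the empty vector line CSF1R rose and none was called lower, where 5.49% of 11635 genes rose and 1.76% fell. In the ETO2-GLIS2 line CSF1R again rose and none was called lower, where 2.94% of 11271 genes rose and 1.38% fell. Of the receptors called at 48 h, IL3RA in ETO2-GLIS2 cells had the smallest share of its 48 h log2 change at 12 h, 10.9%. That 12 h change, from 35 to 40 reads, had an interval of -0.45 to 0.93, which includes 0, so its share is uncertain. CSF2RA in the empty vector line had the largest share, 88.9%.

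**Figure D3:**
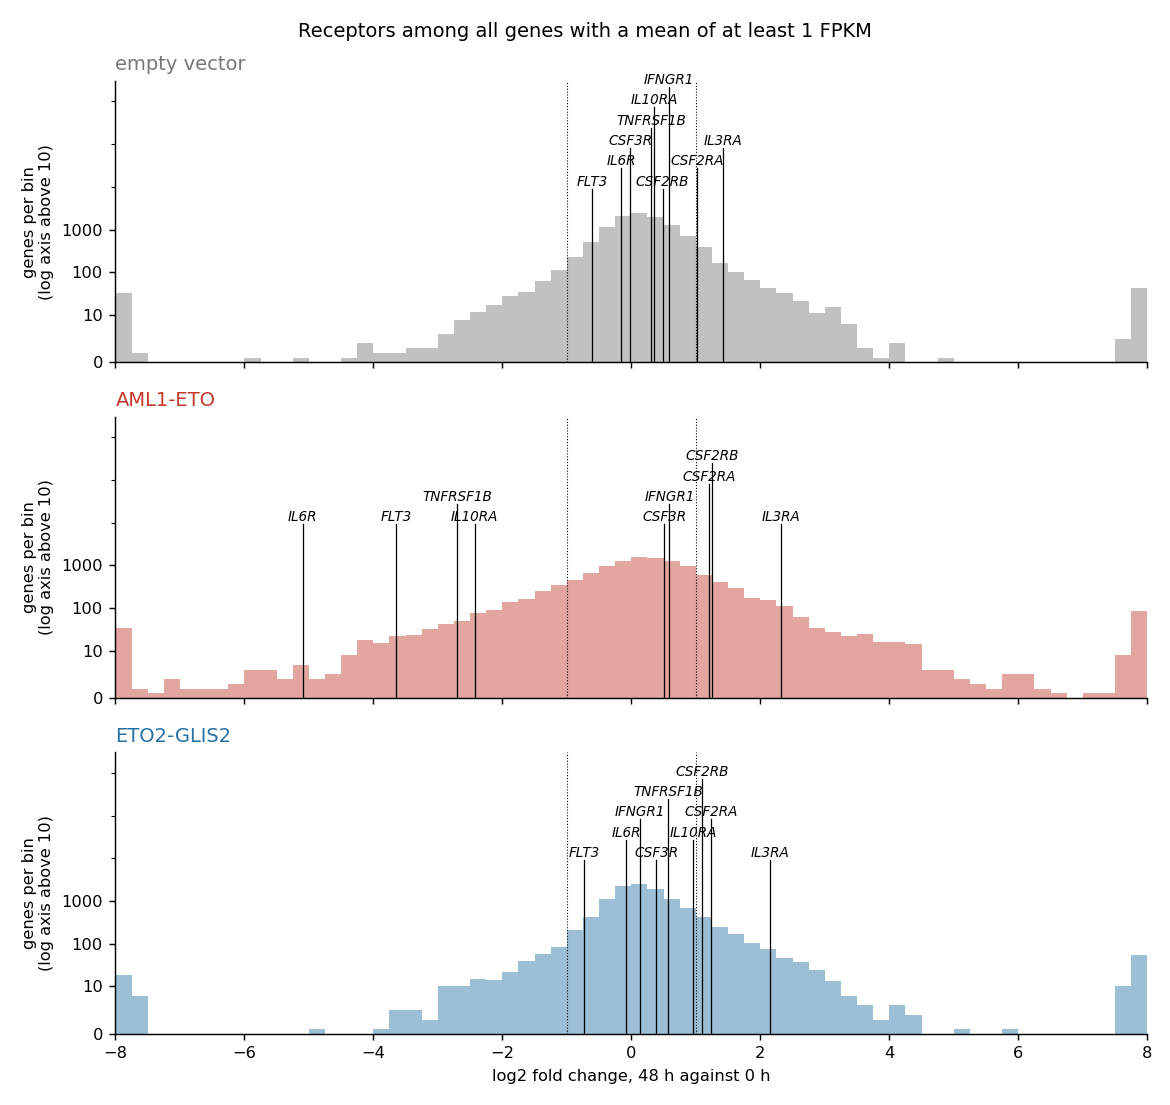
Histogram of log2 fold changes at 48 h of all genes with a mean of at least 1 FPKM (bins of 0.25, gene counts on an axis that is logarithmic above 10, with genes beyond the range in the end bins) in the empty vector, AML1-ETO and ETO2-GLIS2 lines. Vertical lines mark the 9 receptors that passed the minimum, and dotted lines mark 2-fold. In the AML1-ETO line IL6R, FLT3, TNFRSF1B and IL10RA stand in the lower tail at -5.10, -3.64, -2.70 and -2.43.

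The makeup of the receptor transcripts also differed between lines at 48 h. IL6R and TNFRSF1B together made up 64.5%, 59.6% and 59.9% of the summed FPKM of the 10 receptors at 0, 12 and 48 h in the empty vector line, and 58.3%, 58.8% and 53.7% in ETO2-GLIS2 cells. In the AML1-ETO line their share went from 58.8% to 38.8% and 6.59%. The share of CSF2RA, CSF2RB and IL3RA was 7.22%, 14.3% and 29.8% in AML1-ETO cells, 5.69%, 8.45% and 9.52% in the empty vector line, and 5.00%, 6.97% and 10.4% in ETO2-GLIS2 cells. CSF3R became the most abundant receptor transcript in AML1-ETO cells at 48 h, with 43.3% of the sum against 19.0% at 0 h. The sum itself was 198, 148 and 124 FPKM in AML1-ETO cells, 185, 209 and 200 FPKM in the empty vector line, and 184, 213 and 223 FPKM in ETO2-GLIS2 cells.

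**Figure D4:**
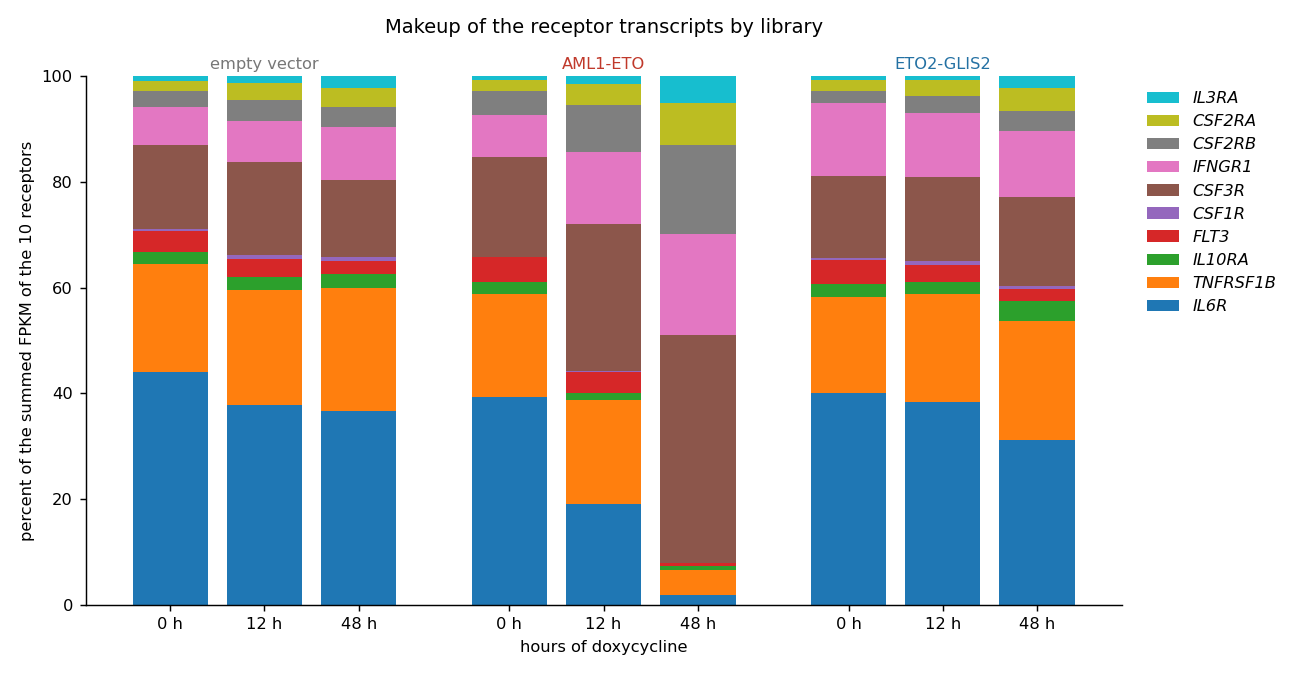
Stacked bars of each receptor's percent of the summed FPKM of the 10 receptors in each of the 9 libraries. The IL6R and TNFRSF1B segments at the bottom hold 6.59% of the AML1-ETO bar at 48 h and 53.7% to 64.5% of the bars of the other lines.

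Several ratios between receptor chains, or between related receptors, shifted in AML1-ETO cells. IL6ST (gp130), the signalling partner of IL6R, had 2.40 FPKM at 0 h and 2.58 FPKM at 48 h there, so the ratio of IL6R to IL6ST was 32.5, 11.8 and 0.881 at 0, 12 and 48 h, against 22.1 to 31.9 in the other lines. TNFRSF1A, the TNF receptor with a death domain, fell from 31.9 to 15.9 FPKM, and the ratio of TNFRSF1B to TNFRSF1A was 1.20, 1.28 and 0.372, against 1.25 to 1.80 in the other lines. IFNGR2, the signalling chain of the interferon-γ receptor, fell from 11.4 to 3.42 FPKM (log2 fold change -1.73, -2.00 to -1.47), and the ratio of IFNGR1 to IFNGR2 was 1.38, 2.53 and 6.93, against 1.09 to 2.33 elsewhere. Of the IFNGR2 exon bases, 14.97% lie opposite exons of TMEM50B, and the strand setting of the counting was not stated. CSF2RB and CSF2RA kept a ratio of 2.09 to 2.29 in AML1-ETO cells, compared with 0.907 to 1.55 in the other lines. IL10RB was at most 0.701 FPKM, and 21.6% of its exon bases are shared with a read-through transcript, so its ratio to IL10RA is uncertain.

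**Figure D5:**
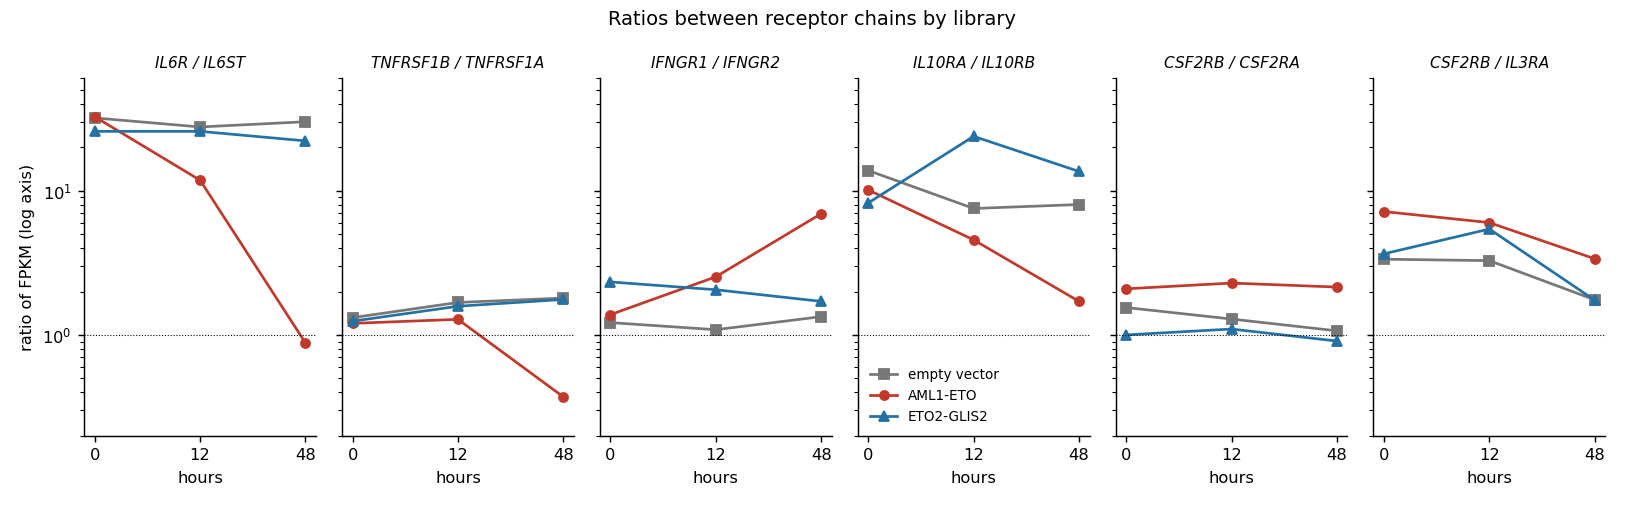
Ratio of FPKM (log axis) between pairs of receptor chains against hours of doxycycline (0, 12 and 48 h at equal steps) in the 3 lines, 1 library per point, with a dotted line at equal levels. IL6R over IL6ST falls to 0.881 and IFNGR1 over IFNGR2 climbs to 6.93 at 48 h in AML1-ETO cells.

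Other genes of these pathways were described from hand-written lists, against the same 48 h background shares. Of 16 partner chains and related receptors, 7 passed the FPKM minimum, and 4 of them fell in AML1-ETO cells, IFNGR2, EPOR, IL4R and TNFRSF1A, while none was called in the other lines. The median log2 fold change of the 7 was -1.01 in AML1-ETO cells, -0.04 in the empty vector line and 0.24 in ETO2-GLIS2 cells. Of the 11 ligands, TNF alone passed the minimum, with 5.57, 1.31 and 1.10 FPKM at 0, 12 and 48 h in AML1-ETO cells (155, 34 and 28 reads). It had 2.49, 1.10 and 3.02 FPKM in the empty vector line, and 2.71, 0.90 and 2.33 FPKM in ETO2-GLIS2 cells. In AML1-ETO cells TNF fell at 48 h (log2 fold change -2.33, -2.98 to -1.76), from the highest TNF level of the 9 libraries. At 12 h TNF fell in all 3 lines. CSF2, IL3 and IFNG, which encode GM-CSF, IL-3 and interferon-γ, were listed at 0 in all 9 libraries.

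Of 11 kinases and STATs, 10 passed, no member was called lower in AML1-ETO cells, and STAT2 and JAK3 were among those that rose. STAT2, which acts downstream of interferon receptors, went from 19.2 to 96.7 FPKM in AML1-ETO cells, from 17.2 to 21.2 FPKM in empty vector cells and from 16.1 to 26.2 FPKM in ETO2-GLIS2 cells. JAK3 was the only call of this list in ETO2-GLIS2 cells, and the empty vector line had none. The list's median was 0.42 in AML1-ETO cells, 0.12 in the empty vector line and 0.46 in ETO2-GLIS2 cells. Of 14 inhibitors of receptor signalling, 12 passed, and PTPN6, the phosphatase SHP-1, and CISH fell in AML1-ETO cells. PTPN6 went from 46.1 to 8.69 FPKM there (log2 fold change -2.41, -2.53 to -2.29), but the median of the list was 0.50, above that of all genes, and no inhibitor was called in the other lines. Of 12 adaptors, 10 passed. ADAM17, the protease that sheds IL6R and TNF receptors, and TRADD rose in AML1-ETO cells, ADAM17 from 9.49 to 26.1 FPKM, although 11.7% of its exon bases lie opposite exons of other genes. TYROBP, a signalling adaptor of myeloid cells, fell in AML1-ETO cells from 16.9 to 1.59 FPKM and rose in the empty vector line from 8.404 to 28.8 FPKM. Adaptor medians were 0.13, 0.34 and 0.28 in the AML1-ETO, empty vector and ETO2-GLIS2 lines.

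Of the 9 monocytic markers, 5 passed the FPKM minimum at 48 h in AML1-ETO cells and 6 in each of the other lines. SPI1 and LYZ fell in AML1-ETO cells at 48 h, SPI1 from 92.6 to 11.9 FPKM and LYZ from 970 to 45.1 FPKM. In that comparison 11.3% of genes fell. LYZ was also called lower in ETO2-GLIS2 cells (1283 to 332 FPKM), where no receptor was called lower and ITGAM and CD33 rose. There, 10.6% of genes rose and 2.51% fell. ITGAM rose in the empty vector line, where 7.82% of genes rose. At 12 h IL6R and IL10RA were already called lower in AML1-ETO cells. The only marker called there at 12 h was FCGR1A, which rose, as did 6.40% of genes. The summed level of the 9 markers was 1290, 1654 and 260 FPKM at 0, 12 and 48 h in AML1-ETO cells, 770, 1080 and 700 FPKM in the empty vector line, and 1563, 1815 and 650 FPKM in ETO2-GLIS2 cells. Without LYZ it was 215 FPKM at 48 h in AML1-ETO cells and 251 to 320 FPKM in the other 8 libraries. The part of these markers in the changes of the receptors was not tested.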

How the data were processed

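RNA-seq of 9 U937 libraries was used, 1 for each of 3 lines at 0, 12 and 48 h of doxycycline, grouped by the sample titles and characteristics. According to the submitters' processing notes and the study's methods, the authors aligned reads to hg38 with HISAT2 (2.0.5), handled alignments with SAMtools (1.7) and counted reads on genes with HTSeq (0.9.1). The authors deposited FPKM for every gene. The annotation version and strand setting are not given in the sources used here. The submitters' notes also name a tool for differential expression, none of whose results were used.

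Because the FPKM of 1 gene step in units of a single read, reads could be recovered. Scripts ran in Python (3.11.15) with scipy (1.17.1), numpy (2.4.6) and pandas (2.3.3). Whole reads were obtained for 23852 (99.8%) of 23889 genes above 0 in at least 3 libraries, with library totals of 15136397 to 18443639. These reads were used only for exact 95% Clopper-Pearson intervals of ratios between libraries. Intervals cover counting error only, since the reads carry no molecular identifiers and are not independent molecules. Fold changes are on the log2(FPKM + 0.01) scale, which understates the change of low genes. The intervals are those of the read ratio without a pseudocount, so for low genes such as CSF1R value and interval are on different scales. A gene was called past 2-fold with a mean of at least 1 FPKM over both libraries. The 1284 identifiers that shared a gene name were reduced to the one with the highest mean, and no receptor was among them. With 1 library per condition no test was made. On simulated data with 11107 genes for the 48 h comparison of the AML1-ETO line, 99.35% of genes were given the simulated reads. There, 200 of 200 genes changed 4-fold were called, and 95.75% of intervals held the simulated ratio. The changed genes were drawn from those well above the FPKM minimum at 0 h, which leaves out IL3RA, CSF2RA, IL10RA and CSF1R. Intervals were counted over unchanged genes, without those of few reads such as CSF1R.

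The receptors and gene lists were chosen with earlier results of these data known. All 10 receptors are named in every library. Other genes are named as the highest rise or deepest fall of a list at 48 h in the AML1-ETO line, or as the 3 genes with the highest correlation with a receptor (mean of at least 5 FPKM). The remaining called genes of a list, the partner chains and the markers were named after their values were seen. Gene positions come from RefSeq for GRCh38.p14, promoter sequences likewise, and exon overlaps from an annotation on GRCh37, without its coordinates. Exons of the 10 receptors overlapped no other gene (0% of bases on either strand). Protein sequences were not used here, and some members of the lists are not reported here. Plots were drawn with matplotlib (3.10.9).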

Additional observations from a re-analysis of the deposited data

Results flagged for a closer look

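IL10RA and TNFRSF1B moved in opposite directions in the fusion lines, which singled them out. Each was lower than at 0 h at both induced times in AML1-ETO cells and higher at both in ETO2-GLIS2 cells. The 48 h log2 fold change of the AML1-ETO line minus that of the ETO2-GLIS2 line was -3.39 for IL10RA and -3.27 for TNFRSF1B. Only the falls in the AML1-ETO line were past 2-fold, both receptors also had positive 48 h values in the empty vector line (0.36 and 0.31), and with 1 library per condition the difference was not tested.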

How the results depend on the processing

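The 4 falls at 48 h in the AML1-ETO line kept their count of 4 except for 3 with a minimum of 5 FPKM (without IL10RA) and 5 with no minimum (with CSF1R). Its 3 rises became 0 after subtracting the empty vector line and 1 (CSF2RB) directly against the empty vector line at 48 h. The 3 rises in ETO2-GLIS2 cells became 0 under both, and 2 without CSF2RB under a pseudocount of 1 FPKM, median-ratio rescaling or the mean of the uninduced libraries as reference. A minimum of 5 FPKM removed IL3RA and left 2 rises in each fusion line. The 2 rises in the empty vector line became 1 with a pseudocount of 1 FPKM, a minimum of 5 FPKM, median-ratio rescaling, or the mean of the uninduced libraries as reference, an alternative added after the data were seen. At 12 h, the 2 falls in the AML1-ETO line became 1 with a pseudocount of 1 or a minimum of 5 FPKM, and the single rise of CSF1R in the empty vector and ETO2-GLIS2 lines became 0 under each, and in ETO2-GLIS2 cells also 0 after subtracting the empty vector line. A 1.5-fold threshold gave 1 fall (FLT3) at 48 h in the empty vector line and 1 in ETO2-GLIS2 cells, and at 12 h 4 rises in the empty vector line, 3 in ETO2-GLIS2 cells and 1 in the AML1-ETO line. It also called 1 receptor higher in the uninduced AML1-ETO line (CSF2RB) and 1 in the uninduced ETO2-GLIS2 line (IFNGR1), and without an FPKM minimum 1 was lower in the uninduced AML1-ETO line (CSF1R). Causes beyond the construction of each alternative were not tested. Of 170 alternative values of single receptors, 166 kept their sign, and the 4 that did not were differences from the empty vector line for FLT3, IL6R and IFNGR1, none past 2-fold. No paired analysis was possible because each condition has 1 library and the labels give no replicate numbers. Counting limits CSF1R most, with 1 read at 48 h in the AML1-ETO line.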

Other observations

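Genes whose levels followed a receptor most closely were sought among 7213 genes with a mean of at least 5 FPKM, by Pearson's r of log2 FPKM over the 9 libraries. These libraries share lines and controls, so r is a description. IL6R was followed most closely by TRAM2 (r = 0.997), PHACTR3 (0.997) and LAT2 (0.996), and 453 genes had r over 0.9 with it. TNFRSF1B was followed by FES (0.997), a myeloid tyrosine kinase, NEK6 (0.996) and LAPTM5 (0.996), FLT3 by GALNT14 (0.994), ALCAM (0.994), a cell adhesion molecule, and TDP1 (0.990), and IL10RA by RASAL3 (0.985), PREX1 (0.984) and TMEM173 (0.981), which encodes the DNA-sensing adaptor STING. PHACTR3 ranged from 0.172 to 21.4 FPKM and LAPTM5 from 15.6 to 178 FPKM over the libraries. Among the receptors that rose, IL3RA was followed by IDUA (0.992), COX19 (0.990) and DDX17 (0.975), CSF2RA by ZNF12 (0.990), CEPT1 (0.982) and TTC19 (0.978), and CSF2RB by GIPC1 (0.979), ZFYVE26 (0.971) and WDR81 (0.969). CSF3R was followed by PBXIP1 (0.975), BECN1 (0.965) and JARID2 (0.959), with 46 genes over 0.9, the fewest of the 9 receptors compared, and IFNGR1 by BTBD1 (0.987), PSMA5 (0.986) and SQOR (0.979).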
